A study of Homo sapiens with 9 samples.

Results

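The study describes SKOV3 as an ovarian adenocarcinoma line and SKOV3/DDP as its cisplatin-resistant variant. Their gene expression was compared on 3 one-color arrays per line. These 6 arrays are part of a set of 9, in which the other 3 hold IOSE80, a normal ovary cell line that is given beside the comparison. The genes described are all those whose probe carries a RefSeq accession in the scanner files, namely 20 of the 60924 gene and transcript probes of the Arraystar human lncRNA array. The other 60904 probes carry array identifiers alone, so they were counted without a name, with lncRNAs and mRNAs together. The labels and methods name no treatment for the cultures of any line, and all 3 lines were grown in the same serum-containing medium. They do not say how SKOV3/DDP was made resistant, whether it is 1 clone, or whether cisplatin was present at harvest. The labels do not say whether the 3 arrays of a line hold RNA from separate cultures, and the methods speak of independent triplicates under the PCR assays, so P values measure the spread between these arrays, which may be technical.

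Cisplatin acts by forming adducts on DNA. Resistance to it has been linked to lower uptake or higher export of the drug, binding by thiols, repair of the adducts and a blunted apoptotic response. None of the named genes is in the lists used here for these processes. Most of them are genes of glycolysis, the actin cytoskeleton, the ribosome and translation, mitochondria or chromatin, and several of them serve as reference genes in expression assays. Each array also carries control probes named for human, mouse and rat GAPDH and PGK1, which are glycolytic enzymes, with probes called 3′ and 5′ here after the ending of their names. The comparison asks how the line labeled SKOV3/DDP differs from SKOV3, and each gene is read beside these control probes.

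All 3 SKOV3/DDP arrays stood apart from the other 6. Their 75th percentile of the background-corrected intensity lay between 48.2 and 54.2, whereas it lay between 159 and 183 on the SKOV3 arrays and between 162 and 192 on the IOSE80 arrays. Between 33.0% and 38.5% of the probes were well above background in SKOV3/DDP, and between 40.1% and 41.2% were in SKOV3. No spot was saturated. The 3 SKOV3/DDP arrays and 1 SKOV3 array were scanned in one session and the other 5 arrays in another. Values given as unscaled are log2 background-corrected intensities averaged over the spots of a probe, with no adjustment between arrays.

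The control probes differed in part by the species in their names. Of the 8 mouse- and rat-named probes, 5 were brighter on every SKOV3/DDP array than on any SKOV3 array, although both lines are labeled human. Another 2 of the 8, the mouse- and rat-named 5′ PGK1 probes, were dimmer on every SKOV3/DDP array. No human-named probe was brighter in this sense, and 3 of the 4 were dimmer on every SKOV3/DDP array. Each of these separations has a two-sided exact permutation P of 0.1, the smallest value that 3 against 3 arrays can give, and an adjusted P of 0.12 over the 12 probes.

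The mouse-named 5′ GAPDH probe had unscaled values of 4.88, 4.77 and 5.01 on the SKOV3 arrays and of 15.32, 15.99 and 15.85 on the SKOV3/DDP arrays. It was detected above background on 1 of the 3 SKOV3 arrays, and its intensity was at least 1599.8-fold higher in SKOV3/DDP. The rat-named 3′ PGK1 probe had values of 2.96, 2.97 and 2.84 in SKOV3, where 0 of 3 arrays detected it above background, and of 14.45, 14.63 and 14.87 in SKOV3/DDP. It was at least 761-fold brighter in SKOV3/DDP. For these bounds, the floor of each SKOV3 array was its dimmest spot, control probes left out, that the scanner software placed well above background. These floors were 5.08, 5.06 and 5.10. The SKOV3/DDP mean was set against the floor, or against the dim probe's own signal where that was higher. The mouse-named 5′ GAPDH probe lay below the floor on every SKOV3 array, also on the one that detected it. The mouse-named 3′ GAPDH probe measured 10.39, 10.03 and 10.04 in SKOV3 and 15.19, 15.37 and 15.62 in SKOV3/DDP, a difference of 5.24. The mouse-named 3′ PGK1 probe was higher by 2.58, from a SKOV3 mean of 11.81. For rat-named 5′ GAPDH the difference was 1.20, from a SKOV3 mean of 13.22. Both were thus already well above background in SKOV3.

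The human-named probes of the same genes took another course. The 3′ PGK1 probe measured 17.37, 17.29 and 17.38 in SKOV3 and 12.89, 12.72 and 12.96 in SKOV3/DDP, a difference of -4.50. The 5′ PGK1 probe had a difference of -4.38. The 5′ GAPDH probe had values of 14.87, 14.83 and 14.92 in SKOV3 and 12.27, 12.99 and 12.66 in SKOV3/DDP, a difference of -2.24 that turned to 0.25 when the arrays were scaled to their 75th percentile. The 3′ GAPDH probe had overlapping values, at 16.55, 16.62 and 16.83 in SKOV3 and 16.44, 16.63 and 16.61 in SKOV3/DDP, and its difference of -0.11 had an exact permutation P of 0.5, but it turned to 2.38 after 75th percentile scaling and to 0.70 after quantile normalization. The mouse- and rat-named 5′ PGK1 probes were lower in SKOV3/DDP by -1.57 and -1.95 without scaling and higher by 0.92 and 0.54 after it. The remaining probe, rat-named 3′ GAPDH, overlapped between the lines, with a difference of -0.26 (exact permutation P of 0.2) that turned to 2.23 after 75th percentile scaling.

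**Figure D1:**
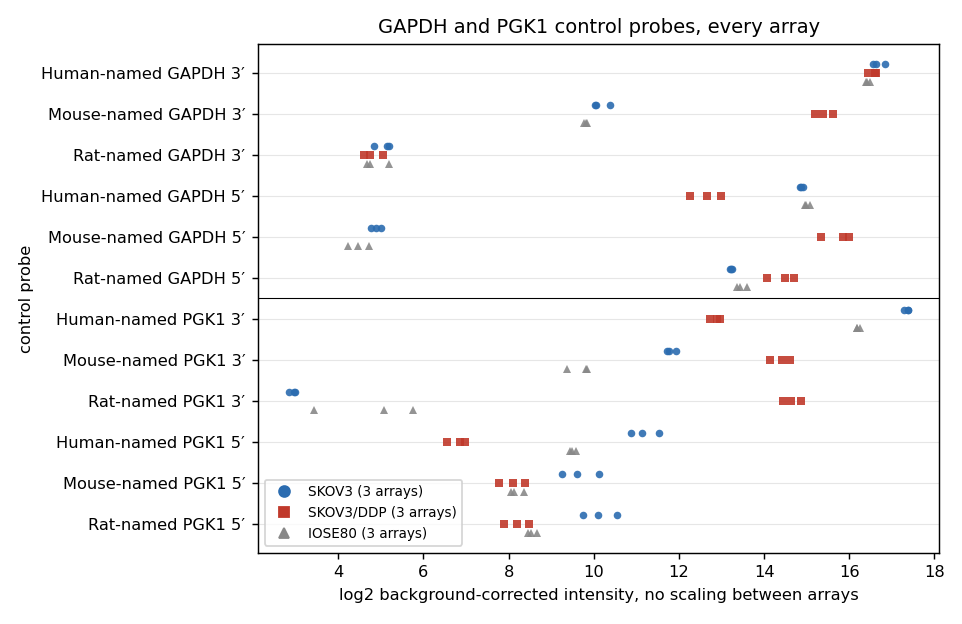
Unscaled log2 intensity (x axis) of the 12 GAPDH and PGK1 control probes (y axis), with 1 point for each array of SKOV3, SKOV3/DDP and IOSE80 (3 arrays each). The mouse-named 5′ GAPDH and rat-named 3′ PGK1 points of SKOV3/DDP lie at 14.45 or more and those of SKOV3 at 5.01 or less, whereas human-named PGK1 lies lower in SKOV3/DDP at both ends.

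How much RNA of another species, if any, contributed to the SKOV3/DDP signal, and its part in the results that follow, was not tested. Fewer cells of a kind and less RNA per cell cannot be told apart in bulk RNA.

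Of the 20 genes, 19 were detected (well above background) on 3 or more arrays. They were tested with limma among 28578 probes that passed the same filter, with all 9 arrays in one model. A gene or probe was called where it differed by more than 2-fold with a P under 0.05 after Benjamini-Hochberg adjustment over all of them. With the arrays scaled to the 75th percentile of 15178 probes detected on all of them, 15 of the 19 genes (78.9%) were called, against 81.0% of all probes tested, a share near that background. The genes divided into 6 called higher and 9 called lower, while 52.8% of all probes were called higher and 28.2% lower. The median difference was -0.85 for the 19 genes and 1.27 for all probes tested.

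The scaling set much of that division. Quantile normalization called 2 genes higher and 12 lower, beside 40.6% and 35.4% of all probes. Without scaling, 0 genes were called higher and 13 lower, beside 9.53% and 52.6% of all probes. On the unscaled values 17 of the 19 genes had all SKOV3/DDP arrays below all SKOV3 arrays and 2 had them above, whereas 61.3% and 13.4% of all probes did so. From no scaling to the main scaling every difference moves up by 2.49, so unscaled values are given first for each gene.

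Among the 16 tested genes that are named here, 7 were called lower under all 3 scalings, namely PGK1, COX4I1, ODC1, MTX1, EIF3D, DYNLL1 and RPL10. Over all 19 genes it was 9, beside 28.1% of all probes tested. RPL10 was below background in SKOV3/DDP, so its scaled fall is uncertain. ACTG1, PFN1, RACK1 and RPS18 were not called under the main scaling, and all 4 were called lower without scaling. PRMT1, H3-3A, RPLP1, ACTB and GAPDH were called higher under the main scaling, but only PRMT1 kept that call under quantile normalization and none of the 5 kept it without scaling. No named gene was called higher under all 3.

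**Figure D2:**
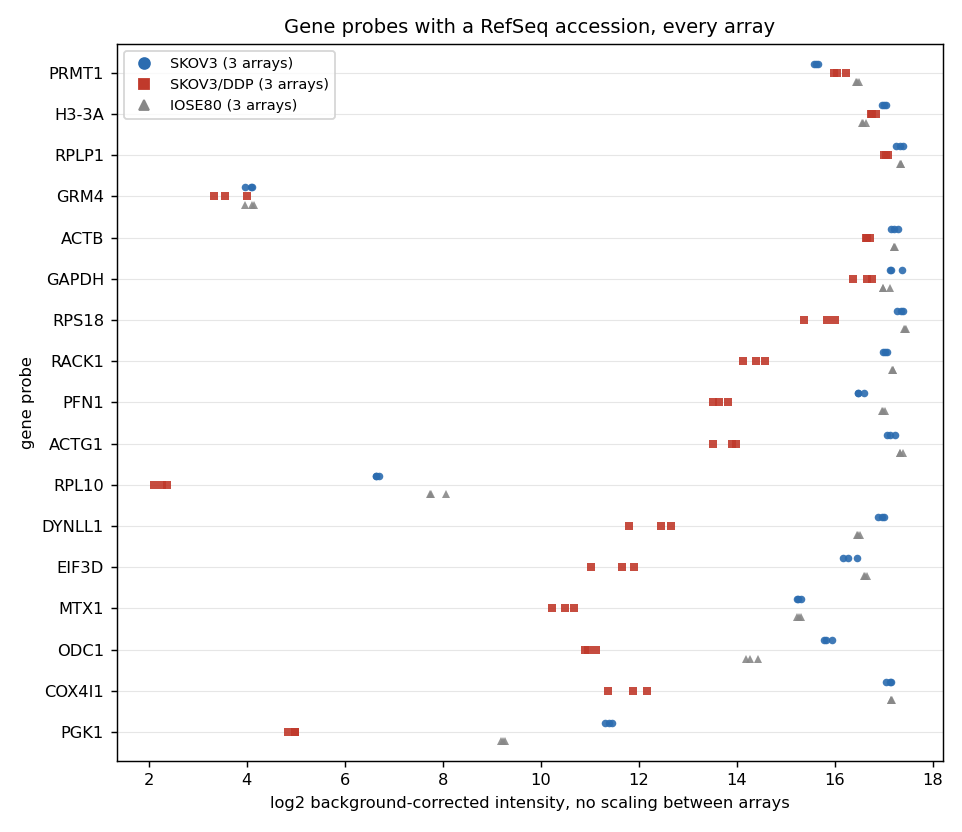
Unscaled log2 intensity (x axis) of each named gene probe (y axis, ordered by the unscaled difference between SKOV3/DDP and SKOV3), with 1 point per array and 3 arrays per line. SKOV3 and IOSE80 points lie close together for most genes. SKOV3/DDP points lie far lower for PGK1, COX4I1, ODC1, MTX1, EIF3D, DYNLL1 and RPL10, the last not well above background there. They lie within 1 log2 unit of SKOV3 for PRMT1, H3-3A, RPLP1, ACTB and GAPDH.

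The 2 glycolytic genes parted. PGK1 (NM_000291), phosphoglycerate kinase, which makes ATP in the later steps of the pathway, had the largest difference of the named genes under all 3 scalings. Its unscaled values were 11.39, 11.30 and 11.44 in SKOV3 and 4.99, 4.97 and 4.85 in SKOV3/DDP, with no overlap and an 86.8-fold lower intensity in SKOV3/DDP. On the SKOV3/DDP arrays the dimmest gene or transcript spots well above background lay at 4.55, 4.18 and 4.31. PGK1 was thus near the floor there, and the size of its fall is uncertain. PGK1 fell by 3.95 (SE 0.132, n = 3 arrays per line) after scaling, with an adjusted P of 1.84e-08 in limma. With normexp background correction the difference was -2.43, smaller than that of COX4I1. GAPDH (NM_002046), the enzyme that precedes PGK1 in the pathway, measured 17.12, 17.14 and 17.36 in SKOV3 and 16.36, 16.66 and 16.76 in SKOV3/DDP. Its difference was -0.61 unscaled, -0.01 after quantile normalization and 1.87 after 75th percentile scaling (SE 0.135, adjusted P of 1.31e-06 in limma), so its direction depended on the scaling. ACTB, the β-actin gene used as a reference in the study's PCR assays, did the same, as given with the actin genes.

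Differences between probes of the same arrays do not move when 1 value is subtracted from each array, but quantile normalization moves them. The change of the PGK1 gene probe minus that of the human-named PGK1 control was -1.94 for the 3′ control and -2.06 for the 5′ control. Against the mouse-named 3′ PGK1 control it was -9.02. The PGK1 gene probe was near the floor in SKOV3/DDP, so the size of these gaps is uncertain. With normexp background correction its scaled difference went from -3.95 to -2.43. The unscaled differences of the human-named PGK1 controls were then -4.48 (3′) and -3.77 (5′), so the gaps depend on the background correction. The change of the GAPDH gene probe was close to that of the human-named 3′ GAPDH control, from which it differed by -0.50, and it exceeded that of the human-named 5′ GAPDH control by 1.62. Its change minus that of the mouse-named 3′ GAPDH control was -5.86. In each of these 6 pairs the within-array differences of the 2 lines did not overlap, at the smallest exact permutation P of 0.1 (0.109 adjusted over 12 pairs). After quantile normalization the 6 values kept their direction, but that against the human-named 5′ GAPDH control went from 1.62 to 0.15. Of all 12 pairs, only the GAPDH gene with the rat-named 3′ GAPDH control overlapped, at -0.36 (exact permutation P of 0.2).

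The actin genes also parted. ACTB (NM_001101), which encodes cytoplasmic β-actin, had unscaled values of 17.19, 17.14 and 17.28 in SKOV3 and 16.65, 16.63 and 16.72 in SKOV3/DDP. The lines did not overlap, but the difference of -0.54 was under the fold required, and it became 1.95 after scaling (SE 0.122, adjusted P of 5.41e-07 in limma) and -0.01 after quantile normalization. ACTG1 (NM_001614), which encodes the closely related γ-actin, measured 17.12, 17.07 and 17.23 in SKOV3 and 13.99, 13.52 and 13.90 in SKOV3/DDP, a 10.1-fold lower intensity. Its scaled difference of -0.85 was not called and its quantile-normalized difference of -1.99 was. Actin transcripts are similar enough that probes can share signal, so both values are uncertain on that account. PFN1 (NM_005022), profilin, which binds actin monomers, had values of 16.47, 16.47 and 16.60 in SKOV3 and 13.51, 13.63 and 13.82 in SKOV3/DDP. This is a 7.24-fold lower intensity, with a scaled difference of -0.37 that was not called and a quantile-normalized one of -1.26 that was.

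Among the genes of the ribosome and translation, RPL10 and EIF3D fell, and the direction of RPLP1 and RPS18 depended on the scaling. EIF3D (NM_003753), a subunit of the initiation factor that binds the small ribosomal subunit, had unscaled values of 16.44, 16.26 and 16.16 in SKOV3 and 11.91, 11.02 and 11.65 in SKOV3/DDP. It fell by 2.27 after scaling (SE 0.251, adjusted P of 2.22e-05 in limma), and its intensity was 27.1-fold lower. RPL10 (NM_006013), a protein of the large subunit, measured 6.69, 6.63 and 6.63 in SKOV3 and 2.27, 2.37 and 2.11 in SKOV3/DDP, where none of the 3 arrays had it well above background. Its intensity was at least 4.95-fold higher in SKOV3 before scaling. After scaling the fit gave -1.91 (adjusted P of 1.18e-06 in limma), but the bound of the background no longer separated the lines, and normexp background correction turned the difference to 1.05.

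RPLP1 (NM_001003), which encodes a protein of the ribosomal stalk, measured 17.32, 17.25 and 17.38 in SKOV3 and 17.04, 17.00 and 17.08 in SKOV3/DDP. Its difference was -0.28 unscaled, 0.11 after quantile normalization and 2.21 after scaling (SE 0.123, adjusted P of 2.66e-07 in limma). RPS18 (NM_022551), a protein of the small subunit, had values of 17.35, 17.27 and 17.39 in SKOV3 and 15.99, 15.37 and 15.83 in SKOV3/DDP. It was 3.04-fold lower unscaled, with a scaled difference of 0.88 and a quantile-normalized one of -0.78, neither of which was called. RACK1 (NM_006098), a scaffold protein of the small subunit, measured 17.07, 16.98 and 17.02 in SKOV3 and 14.57, 14.13 and 14.39 in SKOV3/DDP. It was 6.33-fold lower unscaled, and its scaled difference of -0.17 (adjusted P of 0.352 in limma) became -1.36 and was called after quantile normalization. Both RPL10 and RPS18 have near-identical processed copies in the genome, so which copies a probe measured is uncertain.

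Both mitochondrial genes fell. COX4I1 (NM_001861), a subunit of cytochrome c oxidase, had unscaled values of 17.15, 17.05 and 17.11 in SKOV3 and 12.17, 11.36 and 11.89 in SKOV3/DDP, a 39.4-fold lower intensity. Its scaled difference was -2.81 (SE 0.229, adjusted P of 2.92e-06 in limma). MTX1 (NM_002455), metaxin, a protein of the outer membrane that takes part in protein import, measured 15.31, 15.25 and 15.23 in SKOV3 and 10.66, 10.23 and 10.50 in SKOV3/DDP. It was 27.9-fold lower and fell by 2.31 after scaling (SE 0.174, adjusted P of 1.72e-06 in limma). The unscaled means of SKOV3 and IOSE80 differed by -0.05 for COX4I1 and by -0.0042 for MTX1.

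Of the 2 chromatin genes, PRMT1 was higher under all 3 scalings and H3-3A was lower only without scaling. PRMT1 (NM_001536), the main arginine methyltransferase of histones and other proteins, had values of 15.65, 15.56 and 15.60 in SKOV3 and 15.99, 16.04 and 16.22 in SKOV3/DDP. It was the one named gene whose SKOV3/DDP arrays all lay above the SKOV3 arrays without scaling, by 0.48, which is under the fold required. Its difference was 1.68 after quantile normalization and 2.97 after scaling (SE 0.124, adjusted P of 5.46e-08 in limma). In IOSE80 it measured 16.50, 16.45 and 16.42, above both other lines without scaling, whereas after scaling its mean was 4.19 in IOSE80 and 6.37 in SKOV3/DDP. H3-3A (NM_002107), which encodes the replication-independent histone H3.3, measured 17.05, 16.96 and 16.99 in SKOV3 and 16.74, 16.74 and 16.83 in SKOV3/DDP. Its difference was -0.23 unscaled, 0.40 after quantile normalization and 2.26 after scaling (SE 0.120, adjusted P of 1.97e-07 in limma).

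Of the remaining named genes, ODC1 and DYNLL1 fell. ODC1 (NM_002539), ornithine decarboxylase, which catalyzes the first step of polyamine synthesis, had unscaled values of 15.94, 15.81 and 15.78 in SKOV3, 11.12, 10.96 and 10.90 in SKOV3/DDP and 14.19, 14.42 and 14.26 in IOSE80. SKOV3 was thus above IOSE80 by 1.55 and SKOV3/DDP below both, with a scaled difference from SKOV3 of -2.36 (SE 0.147, adjusted P of 5.32e-07 in limma). DYNLL1 (NM_003746), a light chain of dynein, measured 16.95, 16.88 and 17.01 in SKOV3 and 12.66, 11.80 and 12.44 in SKOV3/DDP. It was 25.0-fold lower and fell by 2.16 after scaling (SE 0.235, adjusted P of 2.00e-05 in limma). GRM4 (NM_000841), a glutamate receptor of neurons, was not well above background on any of the 9 arrays and was not tested.

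**Figure D3:**
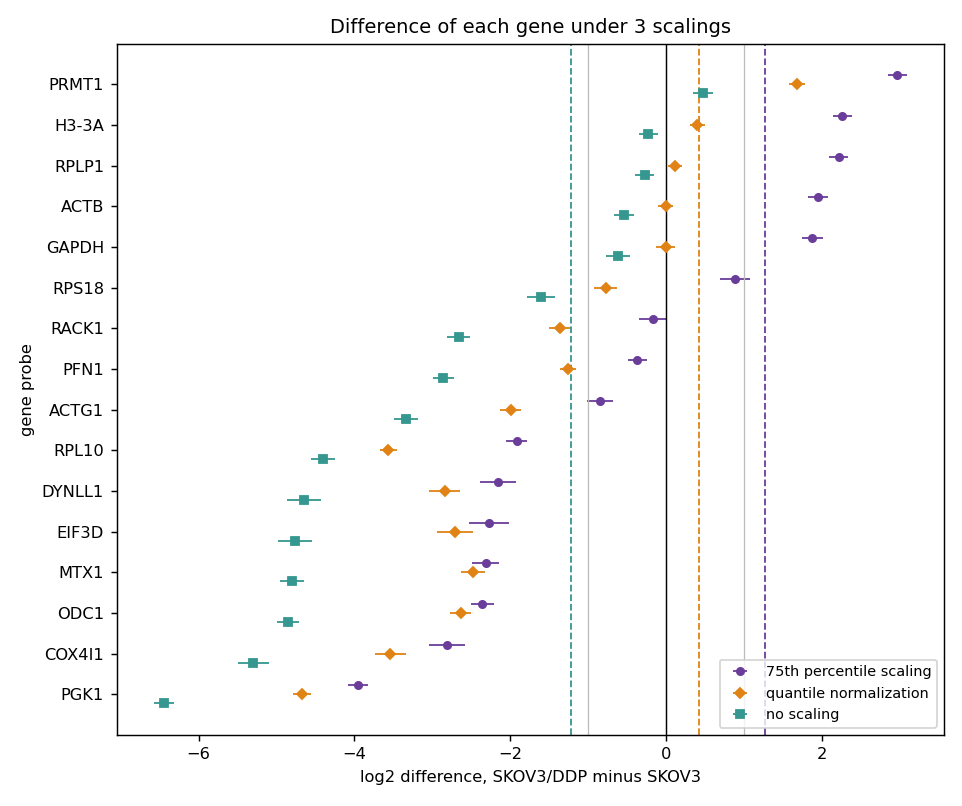
Log2 difference between SKOV3/DDP and SKOV3 (x axis, points with bars of 1 SE from limma, n = 3 arrays per line) of each tested named gene (y axis) under 75th percentile scaling, quantile normalization and no scaling. Dashed lines give the median of all 28578 tested probes under each scaling (1.27, 0.42 and -1.22) and gray lines a fold change of 2. RPL10 goes from -1.91 to -3.56 under quantile normalization, and GAPDH, ACTB, RPLP1, H3-3A and RPS18 cross zero.

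The size of the unscaled differences spread widely. Of the 19 genes, 13 were over 2-fold lower in SKOV3/DDP, 7 of them over 16-fold lower, 6 were within 2-fold and 0 were over 2-fold higher. Among all probes tested, 53.2% were over 2-fold lower, 24.3% over 16-fold lower, 36.5% within 2-fold and 10.3% over 2-fold higher. The median difference was -3.34 for the genes and -1.22 for all probes. The distribution of all probes had its peak near 0 and a broad shoulder of lower values, and the genes lay in both.

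**Figure D4:**
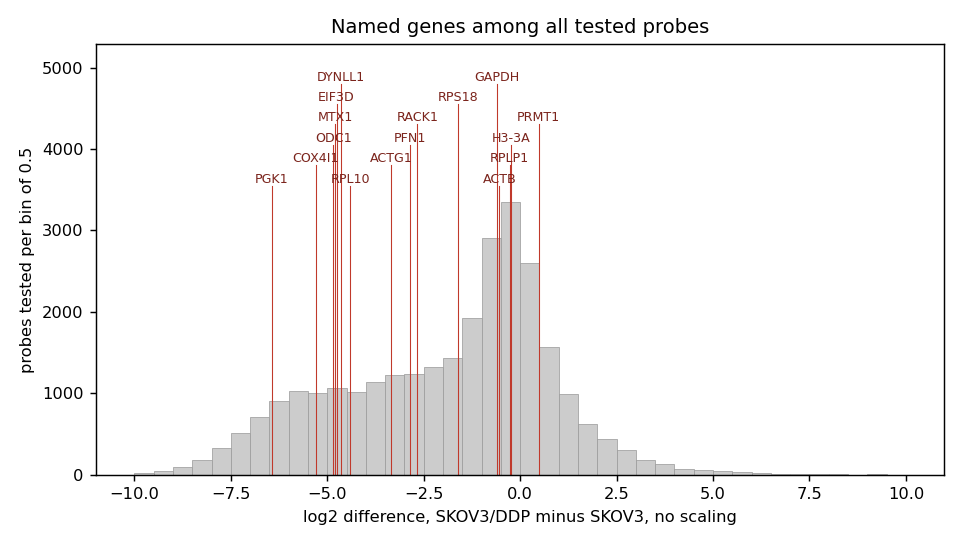
Number of tested probes (y axis) by their unscaled log2 difference between SKOV3/DDP and SKOV3 (x axis, bins of 0.5), with the 16 named genes marked by lines. The genes range from PGK1 at -6.44 to PRMT1 at 0.48, with GAPDH, ACTB, RPLP1 and H3-3A beside the peak and most others in the shoulder of lower values.

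The genes differed less between SKOV3 and IOSE80. The median absolute unscaled difference of the 19 genes was 0.32 between these lines and 3.34 between SKOV3/DDP and SKOV3, beside 0.65 and 1.72 for all probes tested. Over 2-fold differences between SKOV3 and IOSE80 were found for 4 of the 19 genes, beside 35.2% of all probes, and 3 of the 4 are named: PGK1 and ODC1 were higher in SKOV3 by 2.15 and 1.55, and RPL10 was lower, at -1.20.

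The place of a probe among the 60924 probes of its own array needs no scaling, and it was used to follow each probe from line to line. Of the 19 genes tested, 13 had a lower place on every SKOV3/DDP array than on any SKOV3 array and 4 had a higher one, beside 39.5% and 46.4% of all probes tested. Among the 16 named genes these were 11 and 3. COX4I1 went from places 32, 31 and 42 to 1206, 1991 and 1613, and PGK1 from 5239, 5318 and 5325 to 18020, 19098 and 19456. RPLP1, H3-3A and PRMT1 moved up. RPLP1 held place 12 on all SKOV3 arrays and places 6, 6 and 7 on the SKOV3/DDP arrays. PRMT1 went from 489, 472 and 485 to 58, 53 and 54, and H3-3A from 50, 54 and 67 to 17, 16 and 20. ACTB held places 21 to 22 in SKOV3 and 21 to 23 in SKOV3/DDP, and GAPDH also overlapped between the lines.

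**Figure D5:**
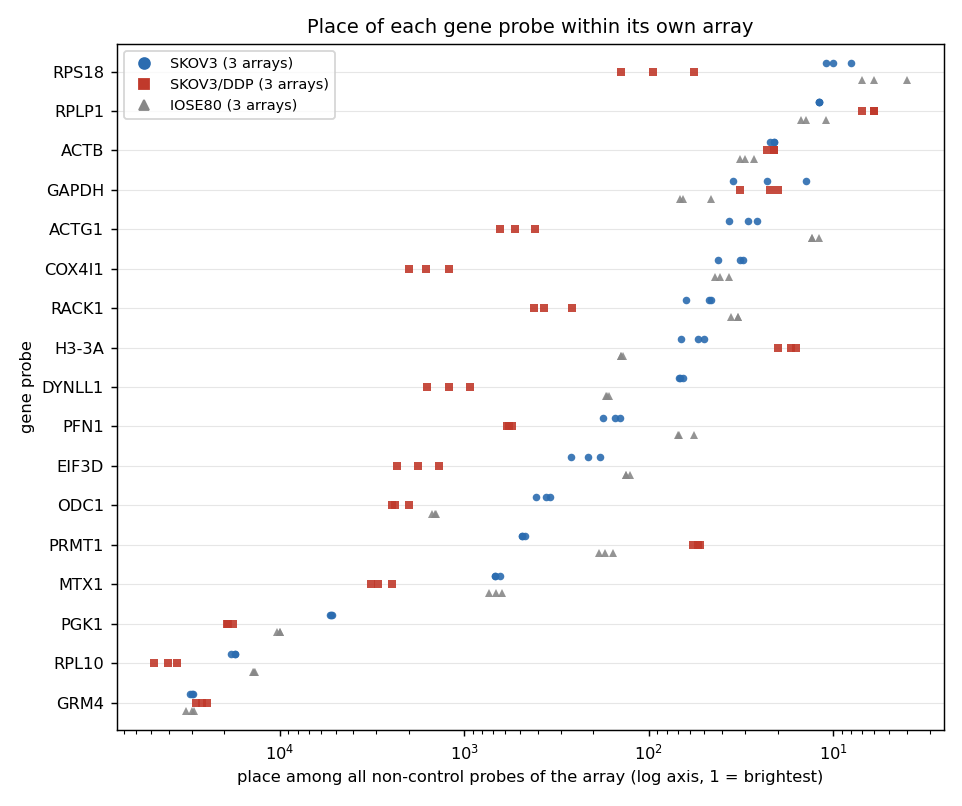
Place of each named gene probe (y axis) among the 60924 probes of its array (x axis, log scale, 1 is the brightest), with 1 point per array and 3 arrays per line. SKOV3/DDP points lie to the left of the SKOV3 points, at lower places, for 11 of the tested genes and to the right for RPLP1, H3-3A and PRMT1.

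The SKOV3/DDP arrays also differed among themselves. The range over the 3 arrays of a line, taken per gene on the unscaled scale, had a median of 0.35 in SKOV3/DDP and 0.13 in SKOV3, and it was wider in SKOV3/DDP for 14 of the 16 named genes. A pattern in these ranges was noticed after the values were seen, and it is given with no test. For 7 of the 16 genes (ACTG1, COX4I1, DYNLL1, EIF3D, MTX1, RACK1 and RPS18) replicate 1 was the highest and replicate 2 the lowest, by 0.44 to 0.89, and for 0 genes was the order turned around. Of the 12 control probes, replicate 1 was the lowest for 11 and replicate 2 the highest for 9. Among probes detected on all 9 arrays, replicate 1 was the highest and replicate 2 the lowest for 41.1% of the 5322 probes over 4-fold lower in SKOV3/DDP. The same order held for 5.69% of the 9473 probes within 4-fold and 9.40% of the 383 over 4-fold higher. The opposite order, with replicate 2 the highest and replicate 1 the lowest, held for 24.1%, 51.5% and 64.0% of these classes.

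The scan divided the comparison unevenly. The SKOV3/DDP arrays share their scan with 1 SKOV3 array, so the spread of SKOV3 cannot be had within it. Against that array the unscaled differences of the named genes moved by at most 0.16, which was the case for GAPDH, from -0.61 to -0.77. Some control probes moved more. The mouse-named 5′ PGK1 probe went from -1.57 to -1.18 and the rat-named one from -1.95 to -1.55, with their direction kept. With the scan as a block in limma, 14 of the 19 genes (73.7%) were called, 6 higher and 8 lower, beside 21897 of the 28578 probes tested. Each of the 16 named genes kept its direction and its call.

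The gene lists related to cisplatin could hardly be read on named probes. None of the 11 genes of cisplatin transport and detoxification, the 12 of platinum adduct repair and the 9 of apoptosis had one. Of 16 glycolytic genes, GAPDH and PGK1 had one, and of 7 genes of polyamine synthesis, ODC1 did. The 10 markers of ovarian carcinoma and epithelial cells and the 4 mesenchymal markers had none, so the identity of the lines was not checked against them. Mouse- and rat-named control probes were set as markers of RNA of another species. On every SKOV3/DDP array 5 of these 8 were brighter than on any SKOV3 array, and 2 were dimmer. What this means for the identity of SKOV3/DDP was not tested.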

How the data were processed

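Total RNA of IOSE80, SKOV3 and SKOV3/DDP was hybridized to 3 Cy3 arrays per line. Per the file headers, the authors used Feature Extraction 11.0.1.1, whereas the submitters' processing notes give 10.7.3.1. The deposited intensity of each spot was background-corrected by that software, and its flags mark spots that are non-uniform or well above background. Processed log2 values of the same arrays were deposited too, and their normalization is not given in the sources used here. Labeling is described as a low-input kit in the methods and as random priming in the labels.

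Log2 intensities were averaged over the spots of a probe (10 for each RefSeq gene, at least 7 kept), without non-uniform spots and, for these probes, population outliers. Each array was scaled by its 75th percentile over 15178 probes that all 9 arrays detected (well above background). Probes detected on 3 or more arrays entered the limma fit (version 3.58.1, run under R 4.3.3), and P values were adjusted over all 28578. The number of arrays limits the precision. On simulated data the test was checked with known changes. Those data held no shift between arrays, so the check cannot judge the scaling. Each of the 20 accessions had its symbol in RefSeq gene names of another build than the arrays', so no coordinates are given. Every RefSeq gene was to be named, and 3 of the 20 are counted but not reported here by name. The genes, gene lists and tests were chosen with earlier results of these data known. Replicate numbers did not pair the arrays. Control probes were compared by exact permutation tests. Normexp (offset 50) used the median spot signal. Python 3.11.15, pandas 2.3.3, numpy 2.4.6 and matplotlib 3.10.9 made tables and plots.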

Additional observations from a re-analysis of the deposited data

How the results depend on the processing

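For all tested probes the median difference, 1.27 in the report, moved to 0.42 with quantile normalization, 0.47 with the percentile over all probes, 0.54 with centring on the median, -1.22 with no scaling, 1.74 with normexp, 0.42 with the authors' processed values, 1.78 with no filter, 1.52 with only probes detected on all 9 arrays, 1.18 with the 6 arrays compared and 1.13 with scan as a blocking factor. For the RefSeq genes the median of -0.85 moved to -1.87, -1.65, -1.57, -3.34, -0.24 and -1.91 under the first 6 of these settings in that order. The probes called went from 23135 to 51776 with no filter and to 12464 with only probes detected on all 9 arrays, since the number tested changed. ACTB turned to -0.01 with quantile normalization (unrounded -0.00703) and -0.54 with no scaling, GAPDH to -0.00748, -0.61 and, with the authors' values, -0.00678, RPS18 to -0.78, -1.60 and -0.76. H3-3A turned to -0.23 and RPLP1 to -0.28 with no scaling, and RPL10 to 1.05 with normexp (adjusted P of 3.08e-07 in limma). The control probes turned under 75th percentile scaling and quantile normalization to 2.38 and 0.70 (human-named 3′ GAPDH), 0.92 and 0.72 (mouse-named 5′ PGK1), 2.23 and 1.07 (rat-named 3′ GAPDH), 0.54 and 0.39 (rat-named 5′ PGK1), and human-named 5′ GAPDH turned to 0.25 under the first alone. The cause was not tested beyond the shift each scaling gives to all probes.

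Leaving out each array in turn gave 22804 to 23197 probes called, 14 to 16 RefSeq genes called, medians of 1.23 to 1.31 for all probes and of -1.01 to -0.68 for the RefSeq genes. Without SKOV3/DDP replicate 1 ACTG1 was called (-1.01), and without replicate 2 RPS18 was called (1.09). With the scan as a block, 21897 probes and 14 RefSeq genes were called. With the replicate number as a block, 23139 probes and 15 RefSeq genes were called. Same-numbered arrays had correlations of 0.17, -0.06 and 0.04 in their deviations from the line means. PGK1, COX4I1, ODC1, MTX1, EIF3D and DYNLL1 kept their direction and call under all 22 alternatives run for each.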
